A study of Mus musculus with 24 samples.

Results

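The Notch receptors of the mouse, a pair of their ligands and the Hes and Hey effector genes were described in the tibialis anterior (TA) muscle of 24 mice. The 10 genes were the receptors Notch1, Notch2, Notch3 and Notch4, the ligands Jag1 and Dll4, and the effectors Hes1, Hey1, Hey2 and Heyl, out of 55487 genes listed in the count data. They were chosen by their normalized read counts (CPM, TMM-scaled) across the 4 groups and by both comparisons of photobiomodulation therapy (PBMT) with control, so their levels and their differences between groups are given as a description, without a test. All 10 passed the filter on low counts in each comparison.

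The mice were male wild-type C57BL/6J animals of 5 to 7 weeks, 6 in each of 4 groups, which were either sedentary or fatigued and either treated with PBMT or left as control. PBMT was a single exposure of the leg to an 830 nm light-emitting diode that gave 25 mW and in total 30 J per square cm over 20 min, 24 h before the left TA was taken, and control mice were shaved and anesthetized for as long without light, so that no group received heat or sham light alone. Fatigued mice ran on a treadmill to exhaustion and were dissected at once, whereas sedentary mice did not run. The paper reports that PBMT mice ran longer than controls, with wide variation between mice in both groups. Light and run time therefore cannot be told apart between fatigued PBMT and fatigued control mice. The same holds where fatigued PBMT mice enter the difference of the PBMT effects or the comparison with sedentary PBMT mice. The part of run time in these values was not tested. Libraries of sedentary and of fatigued muscle came from separate sequencing projects, so a difference between fatigued and sedentary muscle and a difference between projects cannot be told apart.

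Notch receptors are single-pass membrane proteins that are activated by ligands of the Jagged and Delta-like families on a neighbouring cell. Ligand binding leads to cleavage of the receptor, first by an ADAM protease and then by gamma-secretase, and the freed intracellular domain joins the DNA-binding protein RBPJ and a Mastermind coactivator to switch on target genes, among them the Hes and Hey genes, whose products are transcriptional repressors. In skeletal muscle this pathway is known for keeping satellite cells, the stem cells of the fiber, quiescent, and in its vessels for arterial identity and for the exchange between endothelial cells and the mural cells around them.

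Total counts per mouse ranged from 43271093 to 46904076 in sedentary controls, from 46327516 to 52775844 in sedentary PBMT mice, from 56792327 to 68726155 in fatigued controls and from 53122528 to 68566029 in fatigued PBMT mice. At this depth 9 of the 10 genes had at least 146 counts in every mouse, whereas Hey2 had between 7 and 49, so that its values carry a large counting error. A pair of libraries stood apart from the rest of their groups. The root mean square distance of a mouse from the mean log2 CPM of its group was 0.501 in sedentary control replicate 4, against 0.304 to 0.339 in the other sedentary controls, and 0.509 in fatigued PBMT replicate 5, against 0.316 to 0.407 in the other fatigued PBMT mice. Where omission of either mouse moved a log2 fold change of the 10 genes most, the value without it is given as well. For correlations such values are given only in part. The fast fiber genes expected of TA were abundant in every mouse, with a summed level of 8 genes of 123200 CPM or more, the most abundant being Myh4, a fast myosin heavy chain gene (37910 CPM on average).

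Between genes, levels were compared per kilobase of exon. Hes1 had the highest median over the 24 mice, 4.43 CPM per kilobase (4.51 ± 1.42, mean and SD, n = 24), followed by Notch3 with 3.62 (3.71 ± 0.788). Notch4 with a median of 2.57 CPM per kilobase (2.63 ± 0.701) and Dll4 with 2.50 (2.64 ± 0.539) came next. The following 4 genes lay close together at medians of 1.43 for Heyl, 1.40 for Jag1, 1.31 for Hey1 and 1.25 for Notch1, each within 1 SD of its neighbours in this order. Notch2 had 0.681 CPM per kilobase and Hey2 0.0893, the lowest of the 10. The order was not the same in every group: in fatigued controls the mean of Notch3 (4.03 CPM per kilobase) was above that of Hes1 (3.71), and in sedentary PBMT mice that of Dll4 (2.51) above that of Notch4 (1.86). The spans of Hes1, Notch3, Notch4 and Dll4 over the mice overlapped, and Hey2 alone lay below all other genes in every mouse, with at most 0.181 CPM per kilobase against at least 0.458 for Notch2.

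**Figure D1:**
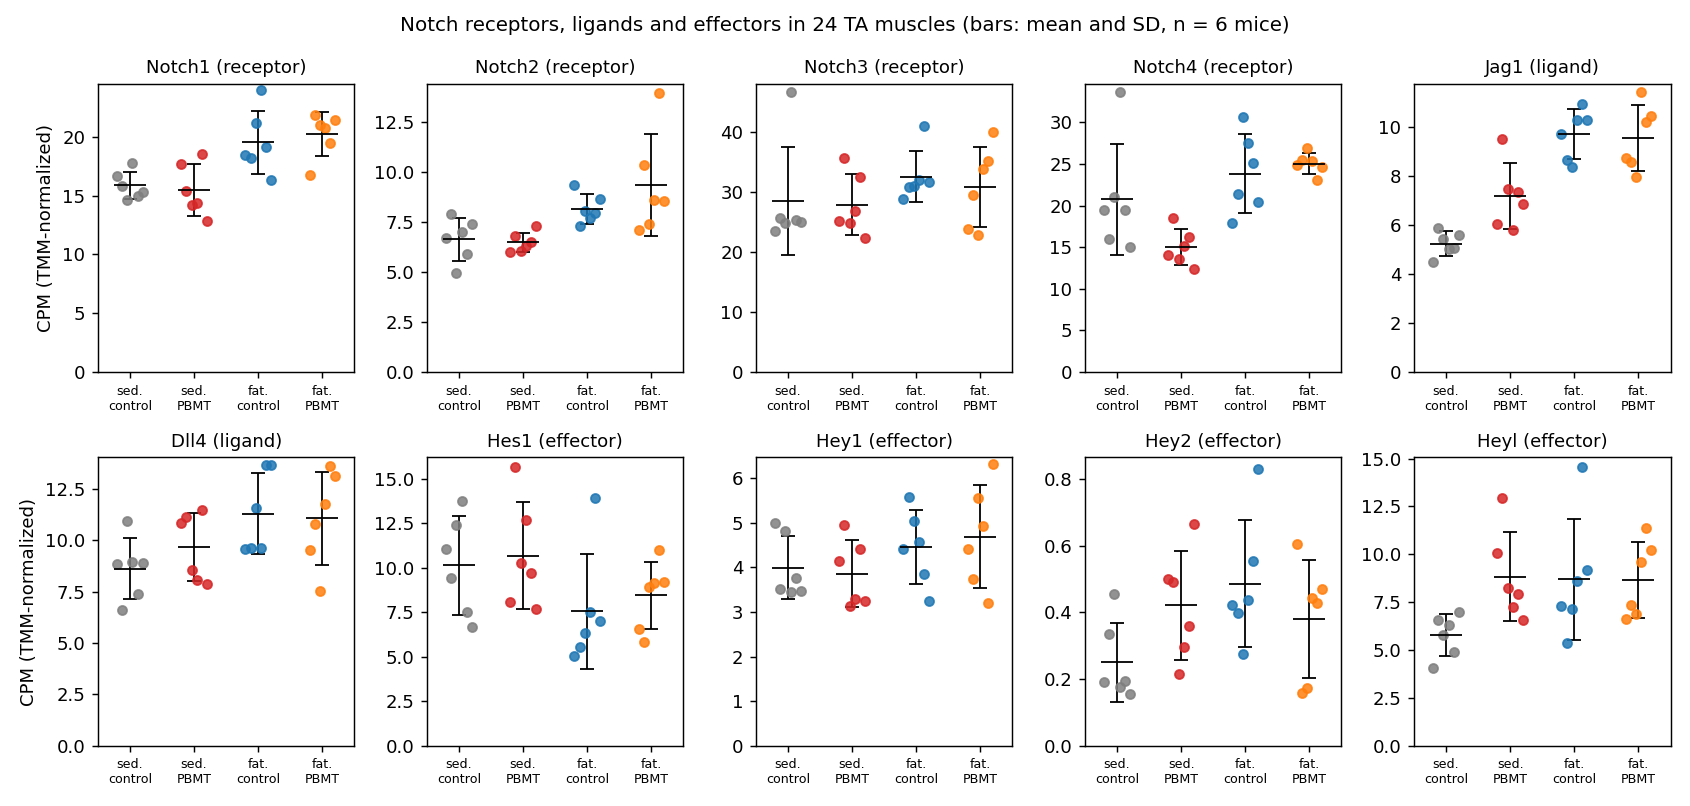
CPM of each of the 10 genes in each mouse (points), by group, with the mean and SD of 6 mice as black bars; every vertical axis starts at 0. Jag1 was between 4.48 and 5.88 CPM in sedentary controls and at 8.35 CPM or more in every fatigued control, and Notch3 in sedentary control replicate 4 (46.8 CPM) lay far above the other sedentary controls.

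The receptors showed little difference between PBMT and control, other than Notch4 in sedentary muscle. Notch4, on chromosome 17 from 34564268 to 34588503 (GRCm38), is the receptor found mainly on endothelial cells. It ranged from 15.0 to 33.6 CPM in sedentary controls (median 19.5) and from 12.4 to 18.5 CPM in sedentary PBMT mice (median 14.6). In fatigued muscle it ranged from 17.9 to 30.6 CPM in controls (median 23.3) and from 23.1 to 26.9 CPM with PBMT (median 25.1). In sedentary muscle 3 PBMT mice lay below every control and 4 controls lay above every PBMT mouse, but the groups overlapped, and the highest control was replicate 4. The log2 fold change of Notch4 with PBMT was -0.46 (standard error (SE) 0.159) in sedentary muscle and -0.28 without sedentary control replicate 4. In fatigued muscle it was 0.07 (SE 0.110).

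Notch3, on chromosome 17 from 32120820 to 32166852, is the receptor known from vascular smooth muscle cells and pericytes. It ranged from 23.5 to 46.8 CPM in sedentary controls (median 25.2) and from 22.4 to 35.7 CPM with PBMT (median 26.1). In fatigued muscle it ranged from 28.9 to 41.1 CPM in controls (median 31.4) and from 22.8 to 40.05 CPM with PBMT (median 31.7). The groups overlapped throughout, with single high mice among the controls, sedentary control replicate 4 at 46.8 CPM and fatigued control replicate 5 at 41.1 CPM. The log2 fold change of Notch3 with PBMT was -0.02 (SE 0.158) in sedentary muscle, 0.16 without sedentary control replicate 4, and -0.08 (SE 0.134) in fatigued muscle. In sedentary muscle 14 of 19 alternative analyses kept its sign.

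Notch1, on chromosome 2 from 26457903 to 26516663, and Notch2, on chromosome 3 from 98013527 to 98150361, are the receptors most studied in satellite cells. Notch1 lay between 14.6 and 17.8 CPM in sedentary controls (median 15.6), between 12.8 and 18.6 CPM in sedentary PBMT mice (median 14.9), between 16.3 and 23.97 CPM in fatigued controls (median 18.8) and between 16.7 and 21.8 CPM in fatigued PBMT mice (median 20.9). Notch2 lay between 4.94 and 7.92 CPM in sedentary controls (median 6.86), between 6.01 and 7.29 CPM in sedentary PBMT mice (median 6.39), between 7.28 and 9.37 CPM in fatigued controls (median 7.99) and between 7.08 and 13.97 CPM in fatigued PBMT mice (median 8.58). Both genes were higher in most fatigued than in most sedentary mice, and for both the PBMT and control mice of a project overlapped. The log2 fold change with PBMT was -0.03 (SE 0.0923) for Notch1 and -0.03 (SE 0.111) for Notch2 in sedentary muscle. In fatigued muscle it was 0.05 (SE 0.0916) for Notch1 and 0.19 (SE 0.146) for Notch2, the latter 0.04 without fatigued PBMT replicate 5, which had the 13.97 CPM.

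Of the ligands, Jag1 differed most between groups. Jag1, on chromosome 2 from 137081456 to 137116644, encodes Jagged1, a membrane ligand of endothelial and mural cells that is itself induced by Notch in smooth muscle. In sedentary muscle it ranged from 4.48 to 5.88 CPM in controls (median 5.23) and from 5.79 to 9.52 CPM with PBMT (median 7.10). In fatigued muscle it ranged from 8.35 to 10.9 CPM in controls (median 9.98) and from 7.95 to 11.4 CPM with PBMT (median 9.47). In sedentary muscle 5 of 6 PBMT mice lay above the highest control and 5 of 6 controls below the lowest PBMT mouse, while in fatigued muscle the groups lay over each other. The log2 fold change of Jag1 with PBMT was 0.46 (SE 0.119) in sedentary muscle, 0.36 to 0.51 on omission of single mice, and -0.02 (SE 0.101) in fatigued muscle.

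Dll4, on chromosome 2 from 119325784 to 119335962, encodes the Delta-like ligand of arterial and sprouting endothelium. It ranged from 6.635 to 10.96 CPM in sedentary controls (median 8.89), from 7.86 to 11.5 CPM in sedentary PBMT mice (median 9.70), from 9.60 to 13.7 CPM in fatigued controls (median 10.6) and from 7.53 to 13.6 CPM in fatigued PBMT mice (median 11.3). The groups overlapped in both projects, and the log2 fold change with PBMT was 0.17 (SE 0.129) in sedentary and -0.03 (SE 0.146) in fatigued muscle.

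Among the effectors, Heyl had the clearest separation of PBMT from control in sedentary muscle. Heyl, on chromosome 4 from 123233556 to 123249875, is a Hey-family repressor gene expressed in mural cells and satellite cells. It ranged from 4.07 to 6.99 CPM in sedentary controls (median 6.06) and from 6.55 to 12.9 CPM in sedentary PBMT mice (median 8.08). In fatigued muscle it ranged from 5.35 to 14.5 CPM in controls (median 7.96) and from 6.61 to 11.4 CPM with PBMT (median 8.48). Again 5 of 6 sedentary PBMT mice lay above every sedentary control, and the fatigued groups did not separate. The log2 fold change of Heyl with PBMT was 0.62 (SE 0.163) in sedentary muscle, 0.48 to 0.69 on omission of single mice, and 0.00 (SE 0.216) in fatigued muscle, where it was 0.21 without fatigued control replicate 5, the mouse at 14.5 CPM.

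Hey2, on chromosome 10 from 30832359 to 30842801, is a repressor gene of arterial endothelium and smooth muscle and was close to the limit of detection. It ranged from 0.154 to 0.455 CPM in sedentary controls (median 0.193) and from 0.215 to 0.666 CPM with PBMT (median 0.425), and from 0.274 to 0.831 CPM in fatigued controls (median 0.431) and 0.158 to 0.605 CPM with PBMT (median 0.436). These were 7 to 21 counts in sedentary controls and 10 to 36 with PBMT. The log2 fold change of 0.75 in sedentary muscle had an SE of 0.345, and that of -0.35 in fatigued muscle, -0.14 without fatigued control replicate 6, an SE of 0.359. The groups overlapped in both projects.

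Hes1, on chromosome 16 from 30064384 to 30067796, encodes the effector most widely used as a readout of Notch activity, and Hey1, on chromosome 3 from 8663359 to 8667256, is a Hey repressor gene active in endothelium and satellite cells. Hes1 ranged from 6.64 to 13.8 CPM in sedentary controls (median 10.2), from 7.70 to 15.6 CPM in sedentary PBMT mice (median 9.98), from 5.06 to 13.9 CPM in fatigued controls (median 6.66) and from 5.85 to 11.0 CPM in fatigued PBMT mice (median 9.02). Its spread between mice was wide in every group, and its log2 fold change with PBMT was 0.08 (SE 0.191) in sedentary and 0.16 (SE 0.234) in fatigued muscle. Without sedentary PBMT replicate 2 the first of these was -0.06, and without fatigued control replicate 5 the second was 0.43. Hey1 stayed between 3.13 and 6.31 CPM in all 24 mice, with a log2 fold change with PBMT of -0.05 (SE 0.148) in sedentary and 0.08 (SE 0.170) in fatigued muscle.

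**Figure D2:**
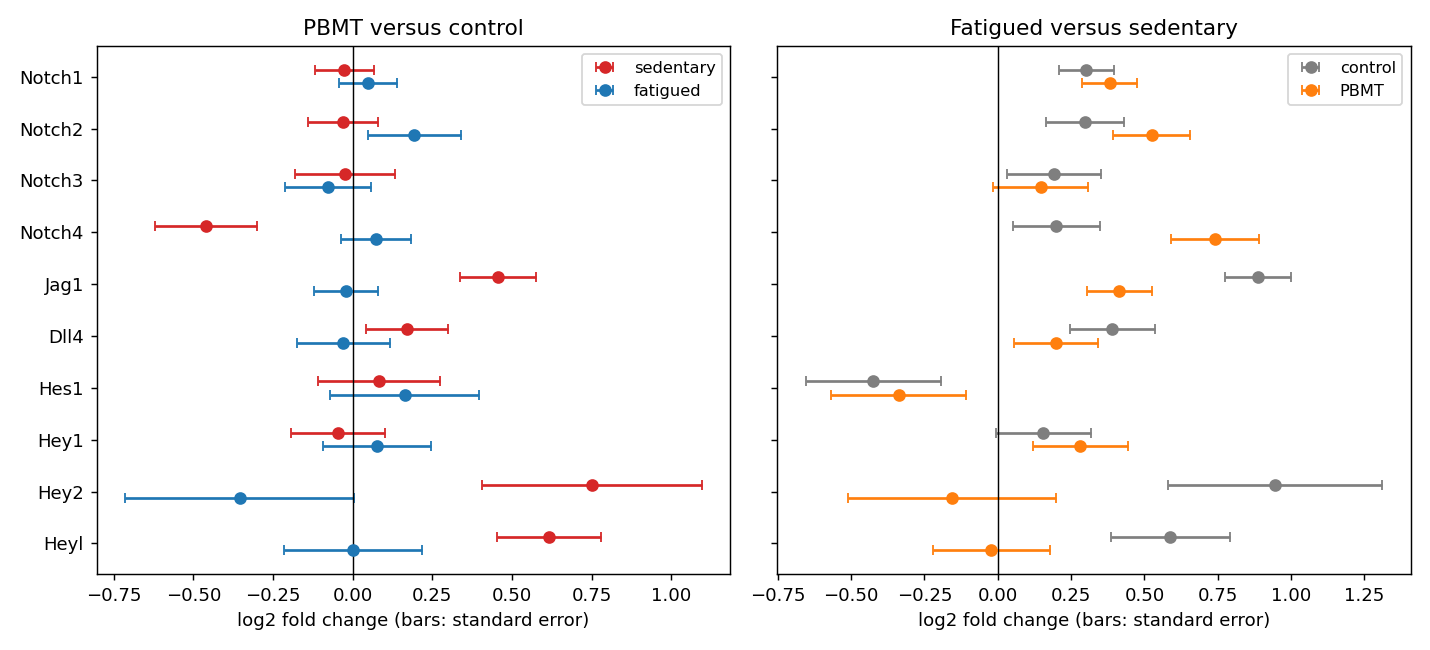
Log2 fold change of the 10 genes (points) with its standard error (bars), PBMT against control on the left and fatigued against sedentary muscle on the right. On the left, Jag1 (0.46), Heyl (0.62) and Hey2 (0.75) lay to the right of 0 and Notch4 (-0.46) to the left in sedentary muscle, while on the right Jag1 (0.89) and Notch4 (0.74) had the highest values among genes other than Hey2.

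For these comparisons the counts of the 10 genes are given beside those of all genes tested, and since the genes were chosen with these contrasts, nothing is read from them. In sedentary muscle edgeR called 0 of the 10 at an adjusted p under 0.05, where it called 0.0282% of 14177 genes. By DESeq2 0 were called as well, against 0.389% of all genes, and 4 of the 10 (Notch4, Jag1, Hey2 and Heyl) had an unadjusted edgeR p under 0.05, as did 7.63% of all genes. In fatigued muscle edgeR called 0 of the 10 and 0% of 14574 genes, DESeq2 called 0 of the 10 and 0.00716% of all genes, and 0 of the 10 had an unadjusted p under 0.05, as did 1.58% of all genes. The PBMT and control mice overlapped for all 10 genes in both projects, where 0.480% of genes did not overlap in sedentary and 0.0274% in fatigued muscle. Over the 10 genes the median log2 fold change was 0.03 in sedentary and 0.02 in fatigued muscle, close to the 0.00 over all genes in both, with 5 and 6 of the 10 above 0.

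The difference between the PBMT effects, fatigued minus sedentary, was -0.47 (SE 0.158) for Jag1, -0.61 (SE 0.285) for Heyl, -1.10 (SE 0.508) for Hey2 and 0.54 (SE 0.212) for Notch4 on the log2 scale. For Notch4 it was 0.35 without sedentary control replicate 4. For Heyl it was -0.40 without fatigued control replicate 5. The other 6 genes had differences between -0.19 and 0.23, the highest being Notch2, with 0.07 without fatigued PBMT replicate 5, and Notch3 had -0.24 without sedentary control replicate 4. Hes1 had 0.09, which was 0.35 without fatigued control replicate 5 and -0.02 without sedentary control replicate 4. Of the 10 genes, 0 were called for this difference by edgeR, against 0.00662% of 15108 genes, and 0 by DESeq2, against 0.00334%, while 4 had an unadjusted edgeR p under 0.05 and 665 of all genes (4.40%) did. The contrast that chose the genes is part of this difference, so nothing is read from it.

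Fatigued against sedentary muscle, the log2 fold change was above 0 for 9 of the 10 genes in controls and 7 in PBMT mice, where 48.4% and 50.3% of all genes were above 0, and some of these values, such as that of Hey1 in controls, were within 1 SE of 0. Every fatigued control lay above every sedentary control for Jag1, with a log2 fold change of 0.89 (SE 0.113), and for PBMT mice, whose sedentary values were higher, it was 0.41 (SE 0.111). For Notch4 it was the PBMT mice that did not overlap, with 0.74 (SE 0.151) against 0.20 (SE 0.149) in controls, the latter 0.39 without sedentary control replicate 4. Heyl and Hey2 had log2 fold changes of 0.59 (SE 0.203) and 0.94 (SE 0.365) in controls and of -0.02 (SE 0.2002) and -0.15 (SE 0.354) with PBMT. Heyl in controls had 0.38 without fatigued control replicate 5. Notch1 had 0.30 (SE 0.0940) in controls and 0.38 (SE 0.0939) with PBMT, Notch2 0.30 (SE 0.132) and 0.53 (SE 0.132), the latter 0.37 without fatigued PBMT replicate 5. Notch3 had 0.19 (SE 0.161) in controls, 0.385 without sedentary control replicate 4, and 0.15 (SE 0.161) with PBMT. Hes1 was the 1 gene with lower values in fatigued muscle in both, -0.42 (SE 0.231) and -0.34 (SE 0.230), and single mice moved these to between -0.69 (without fatigued control replicate 5) and -0.32 (without sedentary control replicate 4) in controls and up to -0.20 (without sedentary PBMT replicate 2) in PBMT mice.

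In controls edgeR called 3 of the 10 genes between fatigued and sedentary muscle, against 18.6% of 15108 genes in either direction and 9.10% called higher, and all 3 were higher. The number was 5 without sedentary control replicate 4 and 1 without sedentary control replicate 5. In PBMT mice it called 4 of the 10, all higher, against 26.8% in either direction and 14.1% called higher. The groups did not overlap for 1 of the 10 genes in controls (Jag1) and 1 in PBMT mice (Notch4), where 7.70% and 11.2% of all genes did not overlap. The levels in the 4 groups were part of the choice of the genes and nothing is read from these counts.

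Markers of the cell types that carry Notch genes were followed in the same libraries, and in bulk muscle fewer cells of a type and less RNA per cell cannot be told apart. The summed level of 10 endothelial genes, of which Cdh5 was the most abundant, ranged from 330 to 412 CPM in sedentary controls (median 366) and from 281 to 496 CPM with PBMT (median 355). That of 10 mural cell genes, led by Rgs5, ranged from 719 to 942 CPM in sedentary controls (median 905) and from 790 to 1030 CPM with PBMT (median 896). In sedentary muscle, then, neither sum separated PBMT from control. The sum of 6 arterial endothelial genes, led by Sema3g, had medians of 38.5 and 38.4 CPM in sedentary control and PBMT mice, with sedentary control replicate 4 highest at 50.3 CPM, and that of 7 satellite cell genes, led by Sdc4, 45.3 and 47.0 CPM. In these and the remaining marker lists, 0 genes had no counts.

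In sedentary muscle all 7 interstitial mesenchymal genes and all 6 macrophage genes had lower values with PBMT, with median log2 fold changes of -0.18 and -0.57, and 0 of either list were called by edgeR. Col1a1 led the first list and Lyz2 the second. The sums of both lists overlapped between the groups. The interstitial sum ranged from 388 to 690 CPM with PBMT and from 471 to 658 CPM in controls. The macrophage sum ranged from 32.7 to 62.6 CPM with PBMT and from 43.2 to 114.7 CPM in controls, highest in control replicate 1. All 5 Schwann cell genes had higher values, with a median of 0.18 and 0 called, the erythrocyte genes, led by Hbb-bs, had a median of -0.04, and of 5 keratinocyte genes, led by Krt10, only 1 was tested, with their sum highest in sedentary PBMT replicate 4 (25.55 CPM). The keratinocyte sum was 9.35 CPM in sedentary PBMT replicate 2, against a group median of 2.51 CPM. Between fatigued and sedentary PBMT mice the 1 keratinocyte gene tested was called lower (log2 fold change -1.52). With PBMT in fatigued muscle, 7 of 7 interstitial and 5 of 6 macrophage genes had higher values, 8 of 8 fast fiber, 5 of 5 Schwann cell and 8 of 10 mural genes had lower ones. In all lists 0 were called. Fatigued PBMT replicate 5 stood far above its group in the interstitial sum (2218 CPM against 589 to 1038 CPM) and the macrophage sum (165.8 CPM against 44.8 to 101.1 CPM). The medians of both sums were lower with PBMT (814 against 868 CPM and 74.4 against 79.4 CPM). In fatigued against sedentary muscle the sums were higher for fast fiber genes (medians of 193600 against 137500 CPM in controls, and 186400 against 152300 CPM with PBMT) and for satellite cell genes (72.2 against 45.3 CPM in controls, and 73.4 against 47.0 CPM with PBMT), and also for arterial endothelial genes (47.6 against 38.5 CPM, and 48.4 against 38.4 CPM), although single arterial genes differed in both directions (4 of 6 higher in controls and 3 of 6 with PBMT). Of the 7 satellite cell genes, 6 were higher and 1 lower in each comparison. In controls 2 were called higher, and in PBMT mice 2 higher and 1 lower, next to 18.6% and 26.8% of all genes in either direction. The most abundant of them, Sdc4, had 29.5 CPM on average and the scarcest, Calcr, 0.269 CPM, so the sum weighs mostly the abundant genes. Among PBMT mice edgeR called 5 of 6 macrophage, 5 of 7 interstitial and 3 of 8 fast fiber genes higher, where 14.1% of all genes were called higher. Among controls it called 0, 1 and 5 of them, where 9.10% of all genes were, and the difference between PBMT and control in these counts was not tested. The interstitial median was 868 against 539 CPM in controls and 814 against 436 CPM with PBMT. The endothelial medians were 400 against 366 CPM in controls and 406 against 355 CPM with PBMT. The mural medians were 968 against 905 CPM and 890 against 896 CPM, with 9 of 10 mural genes higher in controls and 7 of 10 with PBMT, 2 called higher in each. In fatigued controls the satellite cell sum lay between 66.1 and 75.1 CPM, above every sedentary control (42.8 to 65.5 CPM), and the part of these shifts in the higher Jag1 and Notch values was not tested.

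Deviations of single mice from their group mean were not used in choosing the genes, and they were compared between the 10 genes over 24 mice. Of the 45 pairs, 33 had a positive Pearson r, with a median of 0.21, and 4 had an adjusted p under 0.05 by permutation of mice within groups. The pair with the highest r was Jag1 and Heyl, ligand and effector (r = 0.722, permutation p = 9e-05, adjusted p = 0.00405 over the 45 pairs; Spearman rho = 0.755, permutation p = 0.0001, adjusted p = 0.0045). It had r = 0.672 without the 2 mice farthest in Jag1, 0.672 in the sedentary project (n = 12, permutation p = 0.0293, adjusted p = 0.327) and 0.792 in the fatigued project (n = 12, permutation p = 0.0033, adjusted p = 0.0297). Leaving out each mouse in turn gave r between 0.661 and 0.808 over both projects and between 0.411 (without sedentary PBMT replicate 2) and 0.851 in the sedentary project alone. In fatigued muscle Heyl deviated in the same direction in control and PBMT mice of the same replicate number in 6 of 6 cases and Jag1 in 5 of 6, so mice may not be independent there. With mice of the same number permuted together, an alternative added after the data had been seen, Jag1 and Heyl had an adjusted permutation p of 0.0148 over all 24 mice and of 0.182 in the fatigued project alone (720 orders). Among all 15107 other genes ordered by r with Jag1, Heyl came 6th, and 0.0331% of genes lay above it. With the genes ordered by r with Heyl, Jag1 came 51st.

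The other 3 pairs past the threshold joined Notch3 or Dll4 with an effector. Notch3 and Heyl had r = 0.609 (permutation p = 0.00109, adjusted p = 0.021) and rho = 0.613 (permutation p = 0.0035, adjusted p = 0.0525), with 0.463 in the sedentary and 0.780 in the fatigued project. Notch3 and Hes1 had r = 0.605 (permutation p = 0.0014, adjusted p = 0.021) and rho = 0.488 (permutation p = 0.0198, adjusted p = 0.112), with 0.607 and 0.617 by project. Dll4 and Heyl had r = 0.594 (permutation p = 0.00366, adjusted p = 0.0412) and rho = 0.618 (permutation p = 0.00349, adjusted p = 0.0525), with 0.366 and 0.752. Only Jag1 with Heyl was past the threshold by both measures. Without the 2 mice farthest in the first gene of each pair r was 0.693, 0.592 and 0.679, and without sedentary control replicate 4 and fatigued PBMT replicate 5 the pairs of Notch3 with Hes1 (r = 0.545, adjusted p = 0.0832) and of Dll4 with Heyl (r = 0.554, adjusted p = 0.0832) were no longer past it. Those of Notch3 with Dll4 (r = 0.668, adjusted p = 0.0192) and with Jag1 (r = 0.673, adjusted p = 0.0485) were past it instead. With mice of the same number permuted together, Notch3 with Heyl and with Hes1 had an adjusted permutation p of 0.045 each and Dll4 with Heyl 0.0852. High correlations were common among all genes, and 2.34% of them lay above Heyl in their r with Notch3, 2.46% above Hes1, and 1.40% above Heyl in their r with Dll4.

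The projects differed for some pairs, and these differences were not tested. Within the sedentary project 0 of the 45 pairs had an adjusted p under 0.05 by permutation, and in the fatigued project 5 had, or 0 with mice of the same number permuted together. Notch3 and Notch4 had r = 0.883 over the 12 sedentary mice, 0.664 without sedentary control replicate 4, and 0.026 over the 12 fatigued mice. Over all 24 mice that pair had r = 0.584 (permutation p = 0.0122, adjusted p = 0.0642; rho = 0.460, permutation p = 0.017, adjusted p = 0.11), and 0.277 without sedentary control replicate 4, so the pooled value rested on that mouse. Notch3 and Dll4 had 0.344 in the sedentary and 0.834 in the fatigued project. The lowest r was that of Notch2 and Hey1, -0.555 (permutation p = 0.0132, adjusted p = 0.0642; rho = -0.489, permutation p = 0.0263, adjusted p = 0.118), and it was -0.377 without the 2 mice farthest in Notch2.

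**Figure D3:**
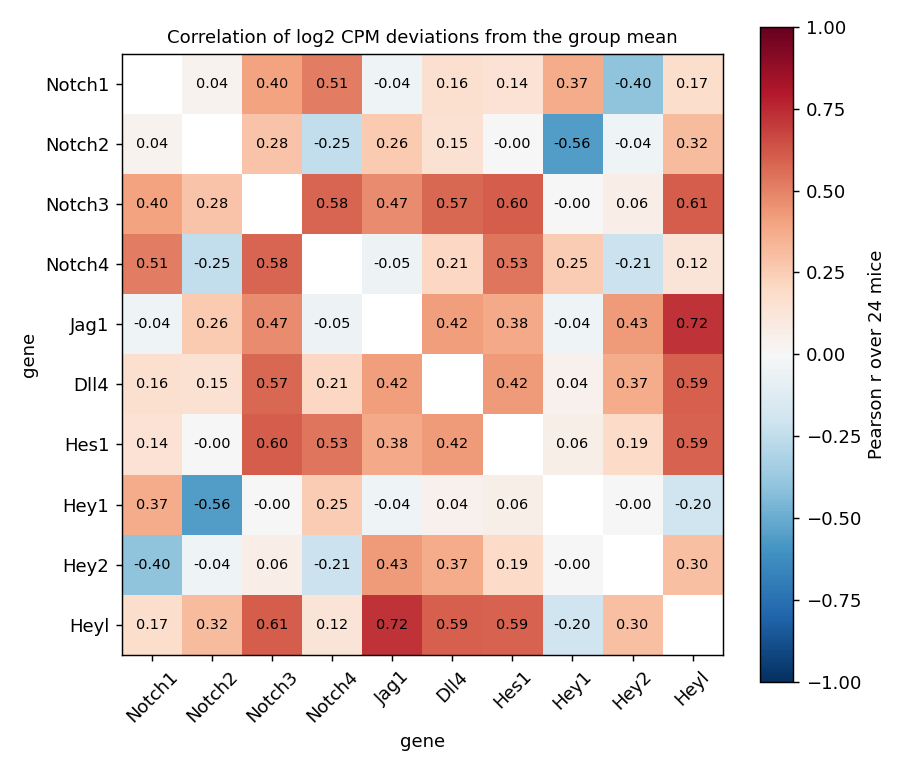
Pearson r of log2 CPM deviations from the group mean for each pair of the 10 genes over 24 mice, from -1 (blue) to 1 (red). The highest value is that of Jag1 and Heyl (0.72), and Hey1 has low or negative values with most of the other genes.

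The same deviations were compared with the summed levels of 4 marker lists, 40 relations in all, a family added after the data had been seen. Of these, 8 had an adjusted p under 0.05 for r and 5 for both r and rho, all 5 with the endothelial sum. Hes1 had r = 0.758 with the endothelial sum (permutation p = 5e-05, adjusted p = 0.002; rho = 0.677, permutation p = 0.00073, adjusted p = 0.0101), 0.642 in the sedentary and 0.874 in the fatigued project, and 0.623 without the 2 mice farthest in Hes1. Dll4 had 0.708 (permutation p = 0.00013, adjusted p = 0.0026; rho = 0.741, permutation p = 0.0002, adjusted p = 0.008), 0.773 and 0.655 by project and 0.739 without the 2 mice. Heyl had 0.689 (permutation p = 0.00097, adjusted p = 0.0097; rho = 0.584, permutation p = 0.00593, adjusted p = 0.0474), Notch3 0.639 (permutation p = 0.00022, adjusted p = 0.00293; rho = 0.656, permutation p = 0.00076, adjusted p = 0.0101) and Notch4 0.540 (permutation p = 0.00296, adjusted p = 0.0237; rho = 0.627, permutation p = 0.00265, adjusted p = 0.0265). These 5 genes were past the threshold with the endothelial sum, and the other 5 were not (Jag1 0.497, Notch1 0.446, Hey1 0.251, Hey2 0.122 and Notch2 0.0386). The share of all genes that correlated as highly with this sum is not given, so nothing particular to the 10 genes is read from these counts. For Hey1, r with the endothelial sum was 0.806 in the sedentary (n = 12, adjusted permutation p = 0.0229) and -0.218 in the fatigued project. In the same order it was 0.503 and 0.858 for Heyl, 0.543 and 0.768 for Notch3 and 0.601 and 0.465 for Notch4. For Notch2 it was -0.339 and 0.319, and over both projects without fatigued PBMT replicate 5 it was -0.2. The differences between projects were not tested. With mice of the same number permuted together, all 8 relations stayed past the threshold over 24 mice. The part of this in the correlations among the 10 genes was not tested. The remaining 3 relations were with the arterial sum, for Notch4 (r = 0.662), Notch3 (r = 0.646) and Hes1 (r = 0.534). In the sedentary project r was 0.882, 0.896 and 0.71 for these genes, and in the fatigued project -0.00311, 0.085 and 0.319. The relations of Notch4 and Notch3 rested in part on sedentary control replicate 4, without which r was 0.424 and 0.417. For Hes1 r was 0.474 without that mouse and lowest, 0.454, without sedentary PBMT replicate 2. Without sedentary control replicate 4 and fatigued PBMT replicate 5 none of the 3 was past the threshold (adjusted permutation p of 0.131, 0.137 and 0.0882), whereas all 5 endothelial relations were. With these 2 mice left out, 3 other relations were past it, Notch3 with the mural sum (r = 0.582, adjusted permutation p = 0.0363) and Notch3 (r = -0.736, adjusted permutation p = 0.0106) and Dll4 (r = -0.612, adjusted permutation p = 0.0209) with the satellite cell sum. Over all 24 mice Notch3 had -0.0379 and -0.126 with these sums, and its values turned on single mice. With the mural sum r was 0.518 without sedentary control replicate 4, and with the satellite cell sum it was -0.751 without that mouse and 0.161 without fatigued PBMT replicate 3. Over all 24 mice the lowest values were those of Dll4 (r = -0.493, permutation p = 0.0357, adjusted p = 0.13, and r = -0.255 without fatigued PBMT replicate 3, whose satellite cell sum of 115.8 CPM was the highest) and Jag1 (r = -0.461, permutation p = 0.0188, adjusted p = 0.0834) with the satellite cell sum. In the fatigued project alone Notch3 (r = -0.840, n = 12, adjusted permutation p = 0.0129) and Dll4 (r = -0.783, n = 12, adjusted permutation p = 0.0309) were past the threshold with that sum, whereas over the 12 sedentary mice they had 0.583 and -0.0848.

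**Figure D4:**
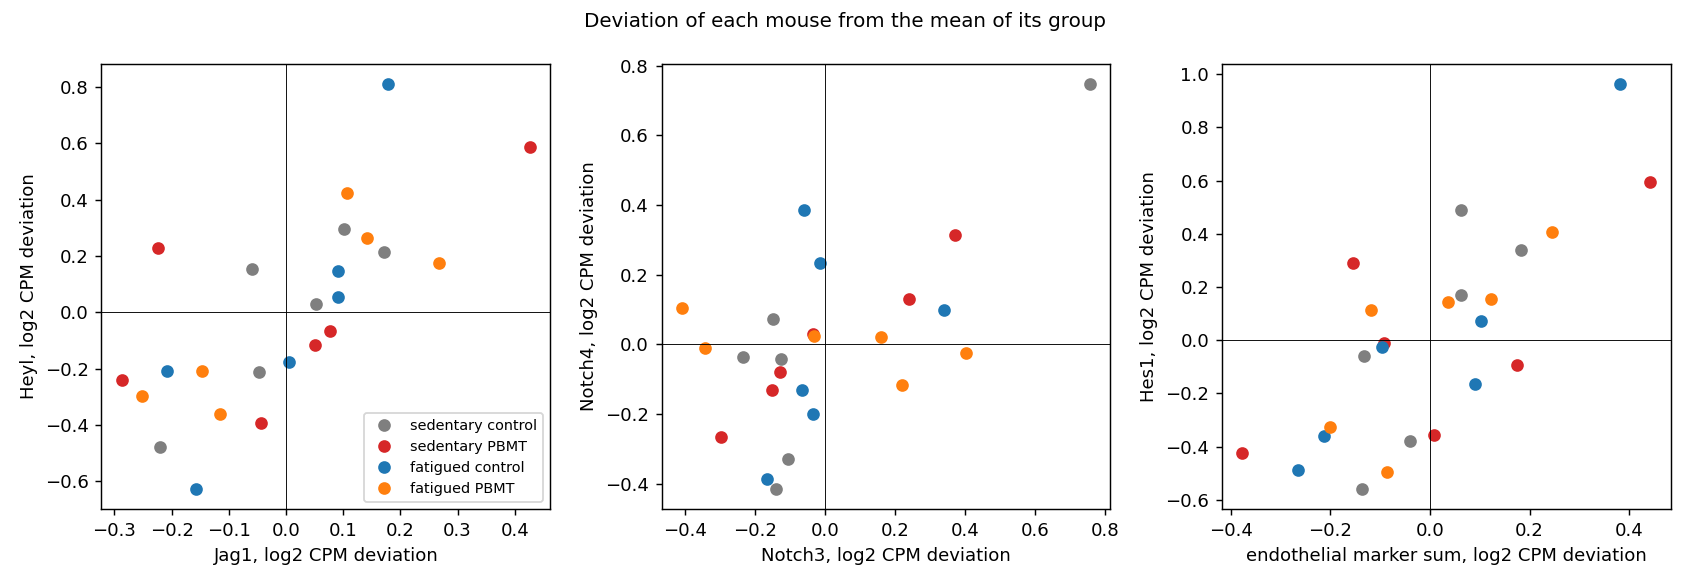
Deviation of each mouse from its group mean in log2 CPM, for Heyl against Jag1, for Notch4 against Notch3 and for Hes1 against the summed endothelial markers, colored by group. Jag1 and Heyl deviated together in most mice (r = 0.722), whereas for Notch3 and Notch4 a single sedentary control, replicate 4, lies far from the rest.

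The 3 genes whose deviations were most like those of each gene, out of 15107, were as follows. For Heyl they were Pdgfrb, the receptor gene that marks mural cells (r = 0.849, rho = 0.855), the guanylate cyclase subunit gene Gucy1b1 (r = 0.843) and Samd5 (r = 0.828). For Notch4 they were Qdpr (r = 0.876), Acads (r = 0.859) and the endothelial receptor gene Tie1 (r = 0.854, rho = 0.784), and for Dll4 Vegfc, a lymphatic growth factor gene (r = 0.823, rho = 0.872), Cracr2b (r = 0.787) and Grap (r = 0.783). With the sum of mural genes that includes Pdgfrb, Heyl had r = 0.259 (permutation p = 0.224). In that sum Rgs5 had 452 CPM on average and Pdgfrb 39.4 CPM, so it weighs Pdgfrb little. Notch3 was closest to Cds2 (r = 0.924), Dock6 (r = 0.893) and the adenylate cyclase gene Adcy6 (r = 0.864), Notch1 to Arhgap31 (r = 0.784), the cytoskeletal linker gene Macf1 (r = 0.774) and Micall1 (r = 0.769), and Notch2 to Man2b2 (r = 0.852), the plexin gene Plxnb2 (r = 0.834) and Lrrk1 (r = 0.830). Hes1 was closest to Fam43a (r = 0.845), the tyrosine kinase gene Fes (r = 0.841) and Rbpms (r = 0.825), and Jag1 to Syt7 (r = 0.785), AU020206 (r = 0.776) and Mtmr7 (r = 0.764). The values of Hey1 were lower, with Lars2 (r = 0.713), Bcl2l2 (r = 0.694) and Proscos (r = 0.679), as were those of the scarce Hey2, with the interferon-inducible genes Pml (r = 0.740) and Oas1b (r = 0.723) and with Fam118a (r = 0.723). Each list holds the highest of 15107 values, so no p is given, and without the 2 mice farthest in the gene itself the r of these 30 pairs lay between 0.582 and 0.871.

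Of 59 further genes of the pathway, listed by role and not by how they moved, 51 were tested. In sedentary muscle 30 had higher and 21 lower values with PBMT, 0 were called by edgeR or by DESeq2, and 7 had an unadjusted edgeR p under 0.05 (7.63% of all genes did). Of these, 4 were higher and 3 lower. The smallest p belonged to Numb, an endocytic inhibitor of Notch (log2 fold change 0.20, SE 0.0741, edgeR adjusted p = 0.588), and to Efnb2, an arterial target gene (0.33, SE 0.128, adjusted p = 0.598). Ep300, a coactivator, had 0.25 and Dtx3l, a ubiquitin ligase gene, 0.30. Those with lower values were Lfng, the Fringe glycosyltransferase gene that alters the choice of ligand (-0.42, SE 0.167, adjusted p = 0.607), the corepressor gene Tle3 (-0.33) and Mfap5, a microfibril gene (-0.39). By role, 8 of 10 receptor cleavage genes, 5 of 7 genes of the transcription complex and 8 of 12 genes of endocytosis and ubiquitination had higher values. The 2 tested canonical ligands besides Jag1 and Dll4 had lower ones, Jag2 (-0.14) and Dll1 (-0.17). The 3 tested non-canonical ligands, Dlk1 (-0.18), Mfap2 (-0.20) and Mfap5, also had lower values. Of all genes tested, 49.6% had higher values, and the list median was 0.03, against 0.00 over all genes. Jag2 was 50.9 CPM in sedentary control replicate 4, while its median was 29.3 CPM in both sedentary groups. Dll1 was also highest in that mouse (4.785 CPM), with medians of 3.20 CPM in controls and 2.76 CPM with PBMT. The part of that mouse in the lower values of these ligands was not tested. Of the remaining genes with the 2 smallest p of their role, Poglut1 had 0.17, Psen2 -0.19, Aph1c 0.26, Maml2 0.24, Ctbp2 0.12 and Nrarp, a feedback inhibitor gene, 0.18.

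In fatigued muscle 27 of the 51 had higher and 24 lower values with PBMT, and by edgeR 0 were called and 0 had an unadjusted p under 0.05; DESeq2 also called 0. By role, the 2 canonical and the 3 non-canonical ligands had higher values here. Among fatigued PBMT mice, Mfap5, Mfap2, Dlk1 and Dll1 were highest in replicate 5, and Jag2 was lowest in it (30.85 CPM). Mfap5 was 22.18 CPM in that mouse, against a group median of 11.44 CPM, and Dll1 was 6.769 CPM, against 3.972 CPM. The part of that mouse in the higher values of these ligands was not tested. Higher values were also found for 3 of 12 genes of endocytosis and ubiquitination, 6 of 10 receptor cleavage genes and 4 of 7 genes of the transcription complex. For the difference of the PBMT effects edgeR and DESeq2 called 0 of the 51, and 2 had an unadjusted edgeR p under 0.05 (Tle3, 0.51, and Numb, -0.20), as had 4.40% of all genes.

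Between fatigued and sedentary muscle, the corepressor gene Tle3 had the largest difference. In controls edgeR called 9 of the 51, 7 higher and 2 lower, and in PBMT mice 14, 10 higher and 4 lower, next to 18.6% and 26.8% of all genes. Tle3, of the Groucho family, rose by 1.17 (SE 0.176, edgeR adjusted p = 5.98e-05) in controls and by 1.68 (SE 0.178, adjusted p = 2.81e-07) in PBMT mice, without overlap between the groups in either. Tle4 of the same family rose by 0.60 (SE 0.130) and 0.52 (SE 0.130), whereas Tle1 fell by 0.41 (SE 0.0973, adjusted p = 0.00432) and by 0.51 (SE 0.0973, adjusted p = 4.03e-04). Aph1b, a gene of a receptor cleavage subunit, fell by 0.50 (SE 0.153) and 0.49 (SE 0.152).

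Crebbp, a histone acetyltransferase gene of the activating complex, rose by 0.38 (SE 0.0829) in controls and 0.28 (SE 0.0828) in PBMT mice, and Numbl, related to Numb, by 0.48 (SE 0.152) and 0.62 (SE 0.151). Neurl1b, a ubiquitin ligase gene, was called in controls (0.54, SE 0.158, edgeR adjusted p = 0.0182) and not in PBMT mice (0.41, adjusted p = 0.0569). Called in PBMT mice and not in controls were Lfng (0.84, SE 0.175, adjusted p = 8.59e-04), Mfap5 (0.97, SE 0.216, adjusted p = 0.00185), Mib1, a ubiquitin ligase gene needed for ligand endocytosis (-0.43, SE 0.109, adjusted p = 0.0043), and, close to the threshold, Psen2 (0.33, adjusted p = 0.0413), Itch (-0.27, adjusted p = 0.0477) and Dlk1 (0.73, adjusted p = 0.0481). These 3 were called in only 6, 4 and 7 of 15 alternative analyses, with the largest edgeR adjusted p at 0.105 (Psen2) and 0.167 (Dlk1) without fatigued PBMT replicate 5 and at 0.143 (Itch) without sedentary PBMT replicate 1. Among controls Numbl and Aph1b were called in 11 and 12 of the 15, and Aph1b in PBMT mice in 13, while all other genes named here as called were called in all 15. The difference of the 2 contrasts is the difference of the PBMT effects, for which 0 of these genes were called. In controls Lfng had 0.38, Mfap5 0.47, Mib1 -0.27, Psen2 -0.009, Itch -0.044 and Dlk1 0.365. Every fatigued control lay above every sedentary control for Mfap5, whereas fatigued and sedentary PBMT mice overlapped for it. The list medians of 0.08 in controls and 0.09 in PBMT mice stood against -0.01 and 0.00 over all genes.

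RefSeq promoters of 300 bases, 250 before to 50 after the start given by RefSeq, matched 7 of the 10 genes (build GRCm38.p6), and Hes1, Hey1 and Heyl had no entry. That start need not be the end of the gene span in GENCODE, and for Notch1 the window (chr2:26503773-26504072, minus strand) lies inside the span. Both strands were searched for GTGGGAA, letters that RBPJ is known to bind, which 6.38% of 32851 promoters hold, and for CACGTG, an E-box bound by Hey proteins, which 7.15% hold. The first was found in the Hey2 promoter alone, at 2 places, and the second in 0 of the 7. The shorter TGGGAA, which lies within the first and is held by 25.6% of promoters, also matched Hey2 alone. The GC content was 72.0% for Hey2, 55.7% for Jag1 and 58.3% for Notch4, against a median of 52.7%. These 3 are shown because their genes had the largest differences with PBMT in sedentary muscle beside Heyl, in the direction of transcription, with GTGGGAA or its reverse complement in capitals. They lie at chr10:30842734-30843033 (minus strand) for Hey2, chr2:137116471-137116770 (minus strand) for Jag1 and chr17:34564045-34564344 (plus strand) for Notch4. A match says only that these letters are present.
Hey2: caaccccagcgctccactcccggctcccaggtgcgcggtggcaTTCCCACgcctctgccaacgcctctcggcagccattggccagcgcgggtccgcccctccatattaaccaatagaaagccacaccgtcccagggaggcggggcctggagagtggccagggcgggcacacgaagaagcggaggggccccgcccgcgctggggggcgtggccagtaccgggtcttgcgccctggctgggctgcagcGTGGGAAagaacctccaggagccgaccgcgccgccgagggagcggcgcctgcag
Jag1: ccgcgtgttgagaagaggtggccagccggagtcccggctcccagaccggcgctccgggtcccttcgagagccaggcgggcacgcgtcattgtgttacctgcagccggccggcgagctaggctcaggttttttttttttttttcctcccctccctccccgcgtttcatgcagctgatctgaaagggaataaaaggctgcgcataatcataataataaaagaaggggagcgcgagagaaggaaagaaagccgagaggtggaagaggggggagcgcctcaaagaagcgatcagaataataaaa
Notch4: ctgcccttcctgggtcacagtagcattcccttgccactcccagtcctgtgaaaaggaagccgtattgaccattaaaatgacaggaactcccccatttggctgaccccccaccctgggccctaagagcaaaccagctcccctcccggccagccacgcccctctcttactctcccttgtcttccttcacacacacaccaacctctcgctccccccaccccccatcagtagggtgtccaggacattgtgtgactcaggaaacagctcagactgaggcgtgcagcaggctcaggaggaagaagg

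The directional kit keeps strand, but whether the counting used it is not given in the sources used here. Exons of Notch1, Dll4 and Notch3 overlap exons of genes on the opposite strand (Gm13568 and 0610009E02Rik, Gm14207 and Gm17276), and an exon of Notch2 overlaps Gm42820 on the same strand, so the counts of these 4 genes may hold reads of their neighbours or lack reads given to neither.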

How the data were processed

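The authors deposited unnormalized integer read counts, 1 file per mouse. Libraries were directional and paired-end, made from poly(A) RNA. The submitters' processing notes name Trimmomatic, STAR 2.7.1a, Picard 2.20.4, StringTie 2.0.4, featureCounts 1.6.0, HTSeq and GRCm38, without role or order. Identifiers were matched to GENCODE M21 for symbols, coordinates and exon lengths (55227 of 55487). No pair of the 24 mice had counts that agreed within sampling noise.

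PBMT was compared with control within each project of 12 mice, and the other comparisons used 1 fit to 24 mice, in R 4.3.3 with edgeR 4.0.16 (TMM, filterByExpr with minimum count 10, robust quasi-likelihood tests, Benjamini-Hochberg adjustment over all genes tested, two-sided). A gene is called at an adjusted p under 0.05. The steps were tested on simulated data. CPM are TMM-normalized over 24 mice, and log2 CPM used a prior count of 2. Correlations were tested by 100000 permutations of mice within groups, two-sided (Python 3.11.15, NumPy 2.4.6). The smallest p they can give is 1e-05.

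Besides the 10 genes, the text names most pathway genes that were called and the 2 of each role with the smallest p in sedentary muscle, the 3 nearest genes of each member, the most abundant gene of most of the 10 marker lists, and genes whose exons overlap those of a member. The members and lists were chosen with earlier results of these data known. The alternatives tried were DESeq2 1.42.0, its size factors within edgeR, other filters (none, or 10 counts in each sample), 1 fit to all 24 mice, a block for replicate number, a transcript length trend subtracted, omission of mice, and permuting mice of the same number together.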

Additional observations from a re-analysis of the deposited data

Results flagged for a closer look

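Within a group of 6 mice, the gap between the highest or lowest mouse and its neighbour was compared with the range of the group (Dixon's ratio) and with its tabulated 1 in 20 value, for the 40 groups of the 10 genes. Chance gives about 1 in 20 groups past that value, and 4 were past it. Notch3 was 46.8 CPM in sedentary control replicate 4, against 23.5 to 25.7 CPM in the other 5 mice. Notch4 in the same mouse was 33.6 CPM, against 15.0 to 21.04 CPM. Notch3 was 41.1 CPM in fatigued control replicate 5, against 28.9 to 32.1 CPM, and Hes1 in the same mouse was 13.9 CPM, against 5.06 to 7.48 CPM. Sedentary control replicate 4 also had the highest sums of fast fiber, arterial endothelial, satellite cell and erythrocyte genes of its group and the lowest sums of mural (719 CPM) and macrophage genes. Fatigued control replicate 5 had the highest endothelial (521 CPM), macrophage and erythrocyte sums of its group and the lowest fast fiber sum. The part of these sums in the values was not tested.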

How the results depend on the processing

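Each of the 945 alternative log2 fold changes of the 10 genes lay within 1 SD between mice of the reported value. Signs turned only for values within 1 standard error of 0, among them Notch3 in sedentary muscle (0.16 without control replicate 4). In sedentary muscle the log2 fold changes of all genes increased with transcript length (Spearman rho = 0.303, across genes, which are not independent), and with that trend removed Notch1 had -0.12 and Notch2 -0.10. In edgeR fits and DESeq2 alike, 0 of the 10 genes and 0 of the pathway genes were called in either PBMT comparison. The number of all genes called in sedentary muscle, 4, was 16 with no filter, 60 by DESeq2 and 1 with all 24 mice in 1 fit. Leaving out each mouse in turn gave 2 to 20 (2 without control replicate 1, 2 or 6, 18 without control replicate 4, and 10, 7 and 20 without PBMT replicates 2, 4 and 5). In fatigued muscle DESeq2 called 2. For the difference of PBMT effects, leaving out mice gave 1 to 3, with 3 without sedentary PBMT replicate 2. The causes were not tested.

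With the replicate number as a replicate block, 11 genes were called in sedentary and 1 in fatigued muscle. Mice with the same number did not deviate together in every pair (r from -0.0855 to 0.0839 in sedentary and from -0.0997 to 0.346 in fatigued muscle), and 1 and 3 of 6 PBMT mice correlated best with the control of their own number. The numbers were therefore not used as pairs, although some fatigued pairs were alike. With mice of the same number permuted together, added after the data had been seen, 3 of the 45 pairs of genes were correlated instead of 4, and 0 instead of 5 within the fatigued project.

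Leaving out mice, added after the data had been seen, gave 1 to 5 of the 10 genes and 7 to 13 pathway genes between fatigued and sedentary controls, and 10 to 16 pathway genes in PBMT mice. The number of correlated pairs, 4, was 4 with DESeq2 size factors and 6 without the 2 mice farthest in the first gene. Hey2, with 7 to 49 counts per mouse, was lost with at least 10 counts in every sample. Without sedentary control replicate 4 and fatigued PBMT replicate 5, also chosen after seeing the data, 5 of the 8 relations with marker sums stayed past the threshold and 3 others came past it.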
